A study of Mus musculus with 8 samples.

Results

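*Stra8*, *Meiosin* (listed in the deposited table under its older symbol *Gm4969*), *Meioc*, *Ythdc2* and *Rbm46* are genes with which mouse germ cells enter meiosis. They were picked by gene name, as 5 of the 54532 genes of the table, with their levels in these libraries already known. The 8 libraries came from whole testes of synchronized mice, 4 mice per group. The *Sync-Spdya fl/fl* group (controls) carried the floxed *Spdya* alleles alone, and the *Sync-Spdya cKO* group carried them with *Ddx4-CreERT2*, a germ cell Cre that removes exon 2 of *Spdya* once tamoxifen is given. *Spdya* encodes Speedy A, an activator of CDK2 at spermatocyte telomeres. Both groups received WIN18446, an inhibitor of retinoic acid synthesis that holds back spermatogonial differentiation, as newborn pups, then 1 injection of retinoic acid, from which days are counted (RA0). Both also received tamoxifen, on RA7.5 and RA8.5 by the sample labels, and the testes of these juvenile males were taken on RA11.50. Strains were made on a C57BL/6J background, and synchronized littermates served as controls, though the labels do not say which mice shared a litter. The retinoic acid was given on PD9 (days after birth).

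In the testis, retinoic acid switches on STRA8 in preleptotene spermatocytes, the cells that carry out the last DNA replication before meiosis. STRA8 acts together with the HMG-box protein MEIOSIN as a transcription factor for genes of meiotic prophase. MEIOC, the RNA helicase YTHDC2 and the RNA-binding protein RBM46 act on transcripts, and they let cells leave the mitotic program and keep to meiosis. In a testis synchronized by retinoic acid the leading cells pass this step early, and at RA11.50 they are pachytene spermatocytes. The levels of *Stra8* and *Meiosin* then bear on how far a following wave of cells has reached the preleptotene stage. Whole-testis RNA does not say which cells held these transcripts. The question was whether that following wave differed between the groups or between single testes.

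The genes lie on 5 different chromosomes, and no other annotated gene overlaps any of them in GENCODE vM21 on GRCm38. *Stra8* (ENSMUSG00000029848) lies on chromosome 6 at 34920163 to 34939344, plus strand, and *Gm4969* (ENSMUSG00000085601) on chromosome 7 at 19099046 to 19118368, minus strand. *Meioc* (ENSMUSG00000051455) lies on chromosome 11 at 102663716 to 102682237, plus strand, and *Rbm46* (ENSMUSG00000033882) on chromosome 3 at 82837228 to 82876483, minus strand.

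RefSeq gave the sequence before the start of 4 of the 5 genes, *Ythdc2* having no entry in the table used, and the 250 bases before each start were searched on both strands for motifs of the factors named above. AGGTCA is the half-site of retinoic acid receptors, CNCCTCAG is the motif known for STRA8-bound promoters, and CACGTG is the E-box of many helix-loop-helix proteins. Of the 32851 windows of this length in the RefSeq table, 14.0% held AGGTCA, 6.42% held CNCCTCAG and 6.02% held CACGTG. The stretches with matches are shown because *Stra8* and *Gm4969*, the members that moved most between libraries, differed in the motifs they held. They run 5′ to 3′ on the strand of the gene (GRCm38.p6), and capitals mark the motif.
*Stra8*, chr6:34920742-34920771, plus strand: gatggggtgaaaAGGTCAtcttgctccttc
*Stra8*, chr6:34920898-34920927, plus strand: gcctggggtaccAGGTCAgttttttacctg
*Gm4969*, chr7:19118369-19118594, minus strand: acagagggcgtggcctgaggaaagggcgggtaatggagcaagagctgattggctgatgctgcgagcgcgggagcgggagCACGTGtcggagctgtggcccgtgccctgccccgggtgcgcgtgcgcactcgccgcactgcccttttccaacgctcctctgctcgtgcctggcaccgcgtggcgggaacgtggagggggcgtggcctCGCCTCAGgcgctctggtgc
*Rbm46*, chr3:82876490-82876519, minus strand: tcCACGTGaggcacgctaggCTGAGGCGaa

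The *Stra8* window held AGGTCA at 2 places, beginning 194 and 38 bases before the RefSeq start, and no CNCCTCAG or CACGTG. That window lies inside a longer annotated exon of *Stra8* in GENCODE. The first annotated start of the gene, which is not the start of that exon, is 785 bases upstream of the RefSeq start. Only the bases around each match are therefore shown. The *Gm4969* window held CNCCTCAG (as CGCCTCAG, beginning 44 bases before the start) and CACGTG (171 bases before), and no AGGTCA. *Rbm46* held CACGTG (34 bases before the start) and CNCCTCAG on the opposite strand (16 bases before), and *Meioc* held none of the 3 motifs. The *Meioc* window also lies inside the annotated gene, its RefSeq start being 1869 bases downstream of the first annotated start. The bases before that first start were not searched. These are matches of letters, no binding was measured, and a link of the motifs to the levels of the genes was not tested.

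Fragments recovered per library ranged from 13978342 to 19583091. Control replicate 1 stood apart, with 0.464% of its fragments on mitochondrial genes against 2.20% to 3.74% in the other 7. Values without it are therefore given for the members, for *Terb1* and *Rec8*, and for some of the gene lists. *Spdya* was at 19.7 to 23.8 FPKM (fragments per kilobase of gene, relative to a library size set by the authors) in the controls and at 17.7 to 30.5 FPKM in the *Sync-Spdya cKO* testes, which counts the whole gene and not exon 2 alone, so it gave no check of the labels. Of the markers, *Ldhc*, a spermatocyte lactate dehydrogenase, was at 248 to 631 FPKM and *Sox9* of Sertoli cells at 21.5 to 32.4 FPKM. *Hist1h1t*, a linker histone of later pachytene cells, was at 0.210 to 0.893 FPKM, the spermatid gene *Prm1* was at 0 to 0.580 FPKM and *Catsper1* was at 0 in each library. The paper found the H1t protein by staining in most pachytene cells of both groups slightly earlier, so the low *Hist1h1t* RNA gives no stage here.

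*Stra8* was at 5.92, 4.53, 19.8 and 12.9 FPKM in control replicates 1 to 4 and at 2.03, 3.93, 2.93 and 4.70 FPKM in *Sync-Spdya cKO* replicates 1 to 4. Control replicates 3 and 4 were far above the rest, control replicates 1 and 2 lay just above or among the *Sync-Spdya cKO* testes, and the groups overlapped because control replicate 2 was below cKO replicate 4. The means were 10.8 ± 7.05 FPKM and 3.40 ± 1.17 FPKM (SD, n = 4 each), a ratio of 3.18. The counts behind these values were small, 71 to 559 fragments per library, but the differences among controls exceeded counting error. Control replicate 3 had an exact Poisson 95% interval of 18.2 to 21.6 FPKM and control replicate 4 one of 11.7 to 14.3 FPKM, against 3.83 to 5.32 FPKM in control replicate 2 (these intervals cover counting error only). Control replicate 2 and cKO replicate 4 did not differ beyond that error, the latter at 3.97 to 5.54 FPKM.

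*Gm4969*, which encodes MEIOSIN, was at 6.61, 5.63, 18.5 and 5.82 FPKM in control replicates 1 to 4 and at 2.91, 4.42, 4.45 and 3.83 FPKM in *Sync-Spdya cKO* replicates 1 to 4. Control replicate 3 alone was high, the other 3 controls lay close together, and the groups did not overlap: the lowest control was above the highest *Sync-Spdya cKO* library. The means were 9.15 ± 6.28 FPKM and 3.90 ± 0.718 FPKM (SD, n = 4 each), a ratio of 2.35 that fell to 1.54 without control replicate 3. Without it the controls averaged 6.02 ± 0.523 FPKM (SD, n = 3). With 265 to 1361 fragments per library, the exact Poisson 95% intervals of control replicate 2 (5.13 to 6.15 FPKM) and of cKO replicate 3 (3.99 to 4.94 FPKM), the libraries nearest to each other across the groups, did not touch. Such intervals cover counting error only and do not measure a difference between groups. That of control replicate 3 (17.6 to 19.6 FPKM) was likewise apart from those of the other controls.

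**Figure D1:**
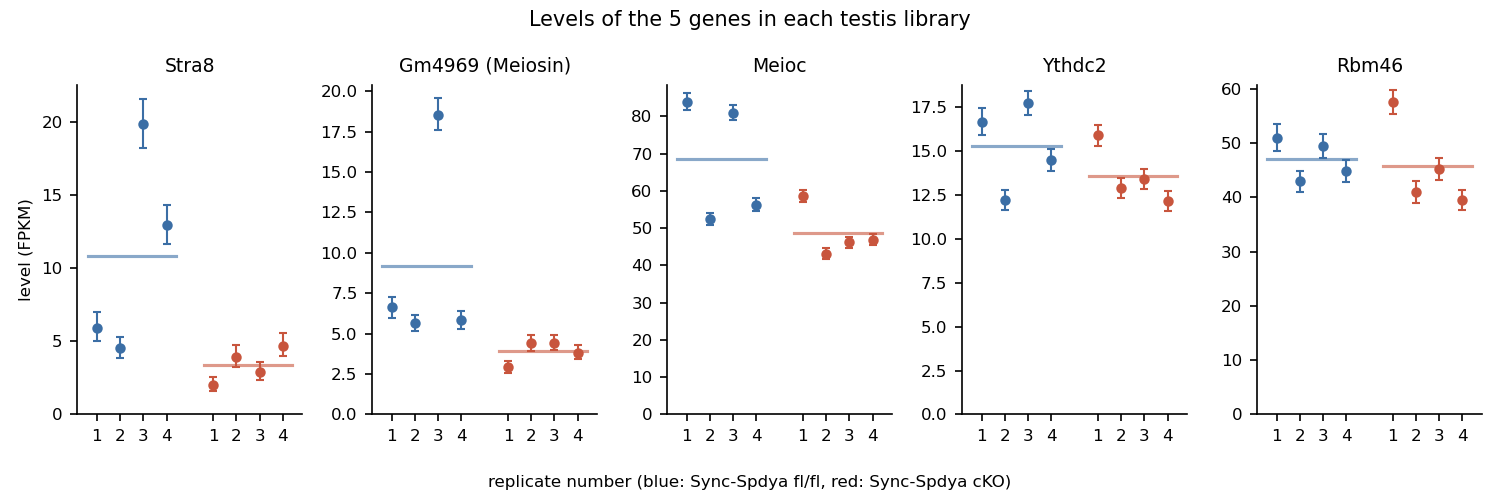
Level in FPKM of each gene (vertical axis, starting at 0, own scale per panel) in each library by replicate number (horizontal axis), controls in blue and *Sync-Spdya cKO* in red. Points are the deposited values, bars the exact Poisson 95% interval of the recovered fragments, and horizontal lines the group means. Control replicate 3 stood at 19.8 FPKM for *Stra8* and 18.5 FPKM for *Gm4969*, while *Rbm46* stayed between 39.5 and 57.5 FPKM in all 8 libraries.

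The 3 genes of RNA control were expressed at higher levels and varied less. *Meioc*, which encodes a meiosis-specific coiled-coil partner of YTHDC2, was at 84.0, 52.5, 81.0 and 56.3 FPKM in control replicates 1 to 4 and at 58.6, 43.2, 46.2 and 46.9 FPKM in *Sync-Spdya cKO* replicates 1 to 4. Control replicates 1 and 3 were high, and control replicates 2 and 4 were below cKO replicate 1, so the groups overlapped. The means were 68.5 ± 16.3 FPKM and 48.7 ± 6.80 FPKM (SD, n = 4 each), a ratio of 1.40 that was 1.30 without control replicate 1.

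*Ythdc2*, the helicase with a YTH domain that reads m6A-marked RNA, was at 16.7, 12.2, 17.7 and 14.5 FPKM in control replicates 1 to 4 and at 15.9, 12.9, 13.4 and 12.1 FPKM in *Sync-Spdya cKO* replicates 1 to 4. Control replicates 1 and 3 were again the 2 highest, but control replicate 2 was the second lowest of the 8 libraries and the groups overlapped. The gene (ENSMUSG00000034653) lies on chromosome 18 at 44827746 to 44889724, plus strand. Its means were 15.3 ± 2.46 FPKM and 13.6 ± 1.63 FPKM (SD, n = 4 each). Without control replicate 1 the controls were at 14.8 ± 2.78 FPKM (SD, n = 3). *Rbm46*, whose protein binds MEIOC and YTHDC2, was at 51.0, 43.0, 49.5 and 44.8 FPKM in control replicates 1 to 4 and at 57.5, 41.0, 45.3 and 39.5 FPKM in *Sync-Spdya cKO* replicates 1 to 4. Here cKO replicate 1 was the highest and cKO replicate 4 the lowest, so the whole range lay within one group, and the means were 47.1 ± 3.81 FPKM and 45.8 ± 8.18 FPKM (SD, n = 4 each). FPKM is per length, so the levels can be set in order: *Meioc* and *Rbm46* were the highest members, with 1.02 to 1.65 times as much *Meioc* as *Rbm46* in the same library, *Ythdc2* came next, and *Stra8* and *Gm4969*, with means over the 8 libraries of 7.10 and 6.53 FPKM, were the lowest and did not differ beyond their spread. Of the 12141 genes tested, 60.1% had a higher mean than *Stra8* and 5.42% a higher mean than *Meioc*.

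The comparison between the groups was fitted with limma on log2(FPKM + 0.1) over all 12141 protein-coding genes with a mean above 1 FPKM in both groups. All 5 members passed that filter, and all 5 had a lower mean in the *Sync-Spdya cKO* testes, by amounts that differed widely among them. The log2 fold change (cKO minus control) of *Stra8* was -1.46 with a standard error of 0.44 and a 95% interval of -2.44 to -0.49. That of *Gm4969* was -1.03 with a standard error of 0.34 and an interval of -1.80 to -0.27, and that of *Meioc* was -0.47 with a standard error of 0.18 and an interval of -0.86 to -0.07. *Ythdc2* at -0.16 (interval -0.47 to 0.14) and *Rbm46* at -0.05 (interval -0.35 to 0.25) had intervals that included 0. The members were chosen with this contrast known, so these values are a description and carry no test.

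The study's thresholds for a call were an adjusted p (Benjamini-Hochberg) below 0.05 together with a log2 fold change beyond 1 in either direction. Across all genes limma called 2, or 0.0165%, both of them lower after the deletion: *Ccdc42* and *5330417C22Rik*, named after their values were seen. The paper used DESeq2 with these thresholds and reported more genes than this, all autosomal. The count here is therefore that of limma on FPKM and not the outcome of the paper. No gene was called without control replicate 2, control replicate 3 or cKO replicate 1, 3 or 4, and 1 was without control replicate 4. With the replicate number as a block no gene was called either. None of the 5 members was called, with limma or with voom on the recovered fragments. At an unadjusted limma p below 0.05 there were 3 members (*Stra8*, *Gm4969* and *Meioc*), where 5% of all genes were lower in the *Sync-Spdya cKO* testes at that level, and 1 of the 5 members had groups without overlap, lower in cKO, where 2.59% of all genes did. Nothing is read from these counts, since the choice of members used the same values. The median log2 fold change was -0.47 over the members and 0.01 over all genes tested.

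**Figure D2:**
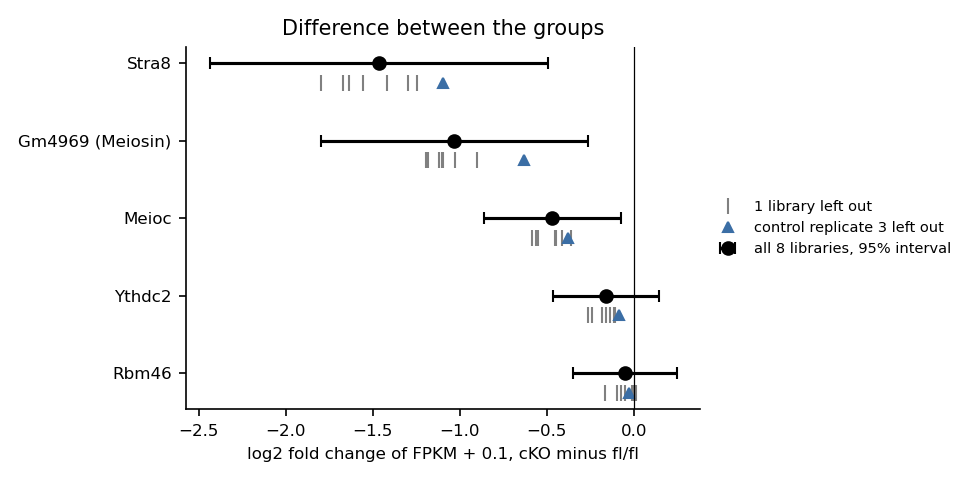
Log2 fold change of FPKM + 0.1, *Sync-Spdya cKO* minus control (horizontal axis), for each gene. Black points are the fit to all 8 libraries with its 95% interval, grey ticks the fits with 1 library left out, and blue triangles the fit without control replicate 3, which moved *Gm4969* from -1.03 to -0.63.

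Single libraries set much of the size of these differences. Without control replicate 3 the log2 fold change was -1.09 for *Stra8* and -0.63 for *Gm4969*, and without control replicate 1 it was -1.67 and -1.12. The highest and lowest values over the 8 fits that left out 1 library were -1.09 and -1.80 for *Stra8* and -0.63 and -1.20 for *Gm4969*, and the direction of both was the same in each of these fits. *Rbm46* moved to 0.01 without cKO replicate 4, and without control replicate 1 its control mean of 45.7 FPKM was no longer above that of the *Sync-Spdya cKO* testes. In whole testes, fewer cells holding these RNAs, less of each RNA per cell and a larger share of other cells cannot be told apart.

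*Stra8* and *Gm4969* were among the genes that varied most between testes of the same group. The SD between libraries, pooled over the 2 groups on the log2 scale, was 0.78 for *Stra8* and 0.61 for *Gm4969*, against a median of 0.21 over all genes tested. Only 0.898% of the 12141 genes had a larger SD than *Stra8*, and 2.61% a larger one than *Gm4969*. For *Gm4969* this rested on control replicate 3, without which its SD was 0.23. For *Stra8* it was 0.63 without that library. *Meioc* (0.28), *Ythdc2* (0.21) and *Rbm46* (0.19) lay nearer the middle of all genes, with 28.8%, 51.9% and 57.0% of genes above them.

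**Figure D3:**
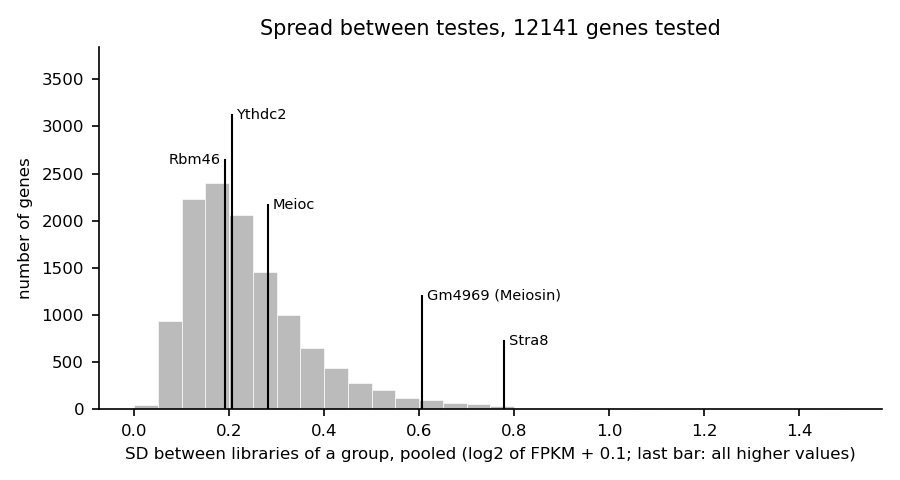
Number of genes (vertical axis) by the SD between libraries of a group, pooled over both groups, in log2 units (horizontal axis, with the last bar also holding all higher values), for the 12141 genes tested. Vertical lines mark the 5 members: *Ythdc2* and *Rbm46* lie near the median of 0.21, and *Stra8* (0.78) and *Gm4969* (0.61) in the upper tail.

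The split of each gene's variation into a part between groups and a part between testes within groups described the same point. For *Stra8*, 54.1% of the sum of squares of the log2 values lay between the groups and 45.9% between testes of a group, and the range among the 4 controls alone (2.11 on the log2 scale) was wider than the difference between the group means. For *Gm4969* the share between groups was 49.1%, and it was 72.3% without control replicate 3, when the other 3 controls spanned 0.23 on the log2 scale. The share was 47.9% for *Meioc*, 17.0% for *Ythdc2* and 2.37% for *Rbm46*. The *Sync-Spdya cKO* testes ranged less widely in *Stra8* (highest over lowest 2.32-fold) than the controls (4.38-fold, or 2.86-fold without control replicate 3), and a test of that contrast was not made.

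Control replicate 3 was the testis with the most *Stra8* and the most *Gm4969*. *Gm4969* exceeded the highest of the other 7 libraries there by 1.47 on the log2 scale, the largest such excess of any of the 12141 genes tested. The next genes by this measure, named after their values were seen, included *Ccnb3*, a cyclin of early meiotic prophase, at 4.16 FPKM against 1.07 to 1.80 FPKM in the other 7 libraries, and *Magea4*, a germ cell gene of the MAGE family on the X chromosome, at 5.94 FPKM against 1.20 to 2.79 FPKM. *Mki67*, a marker of cycling cells, was at 54.1 FPKM there and at 15.9 to 28.4 FPKM in the other 7. The remaining genes of the first 10 were *Hcn3*, *Capn11*, *Cacng5*, *Myrf*, *Gm648* and *Pom121l2*, also named after their values were seen. Whether these genes share a function was not tested. *Stra8* ranked at 51 by the same measure, with an excess of 0.61, since control replicate 4 was also high in it. *Rbm46* and *Meioc* were not at their highest in this library.

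*Stra8* and *Gm4969* did not keep one ratio in all testes. The ratio of their FPKM was 0.896, 0.805 and 1.07 in control replicates 1 to 3 and 2.22 in control replicate 4. In the *Sync-Spdya cKO* testes it was 0.698, 0.889, 0.658 and 1.23 for replicates 1 to 4. Control replicate 4 therefore held more *Stra8* per *Gm4969* than any other library, at a *Gm4969* level like that of control replicates 1 and 2.

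Among the 10 pairs of members, the levels of 3 pairs followed each other most closely across the 8 libraries. These correlations are a description with no test, since the members were chosen with the same values known, and control replicate 3 is high in both members of the first pair. *Stra8* and *Gm4969* had a Pearson's r of 0.86 on the log2 values and a Spearman's rho of 0.81. Their r was 0.82 over the 6 libraries left without control replicates 3 and 4, the farthest from the *Stra8* median, 0.74 without control replicate 3 alone, and 0.72 over all 8 with group means subtracted.

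The other 2 pairs were among the genes of RNA control. *Meioc* and *Ythdc2* had an r of 0.88 and a rho of 0.79, and *Ythdc2* and *Rbm46* an r of 0.82 and a rho of 0.86. With group means subtracted r was 0.91 and 0.84. Without the 2 libraries farthest from the median of the first gene, control replicates 1 and 3, it was 0.69 and 0.90. *Stra8* and *Rbm46* had an r of -0.08 and a rho of -0.07. Libraries differed in cell makeup and depth, and the part of these in the correlations was not tested.

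**Figure D4:**
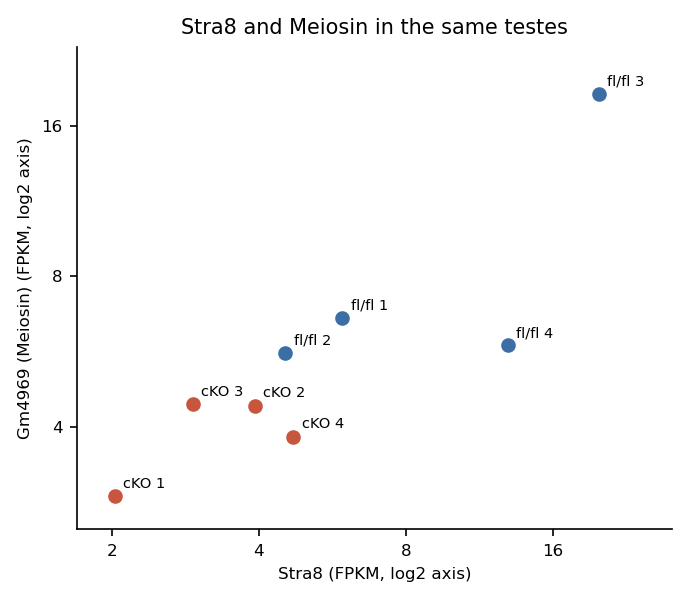
*Stra8* (horizontal axis) against *Gm4969* (vertical axis) in FPKM, both on log2 axes, 1 point per library with its group and replicate number, controls in blue and *Sync-Spdya cKO* in red. Control replicate 3 is highest in both genes, cKO replicate 1 lowest in both, and control replicate 4 has 12.9 FPKM of *Stra8* at 5.82 FPKM of *Gm4969*.

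The genes whose pattern was most like that of *Stra8* over the 8 libraries, by Pearson's r among 12140 genes and without a test, were *Rnf214* (0.96), *Lrch3* (0.95), *Osgin2* (0.95), *Adat1* (0.94) and *Tfrc* (0.93). They moved far less than *Stra8*: *Rnf214* ran from 7.95 to 10.4 FPKM and *Tfrc*, the transferrin receptor, from 14.7 to 18.3 FPKM, where *Stra8* ran from 2.03 to 19.8 FPKM. *Gm4969* stood at place 59 of that order. The genes most like *Gm4969* were *Ctcfl* (0.97), a germ cell paralog of the insulator protein CTCF, *Capn11* (0.96), a testis calpain, and *Adam1b* (0.95). *Ctcfl* was at 9.98 FPKM in control replicate 3 and at 2.90 to 5.27 FPKM in the other 7 libraries, and its r with *Gm4969* was 0.88 without control replicate 3.

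Of 30 early prophase genes, which build the chromosome axis and synaptonemal complex and make and repair the breaks of recombination, none was called by limma or by voom. At an unadjusted limma p below 0.05 there were 6 genes with lower and 1 with higher levels after the deletion. Of all genes tested, 10.9% passed that level in either direction, 5% lower and 5.89% higher. The median log2 fold change of the list was -0.18, against 0.01 over all genes. *Terb2*, which ties telomeres to the nuclear envelope, was at 11.1 ± 1.09 FPKM in the controls and 7.54 ± 1.98 FPKM in the others (SD, n = 4 each, limma adjusted p = 0.26). *Terb1* of the same complex was at 10.6 ± 4.83 and 5.50 ± 0.891 FPKM (adjusted p = 0.276 by limma), and without control replicate 1 the controls were at 8.16 ± 0.535 FPKM (SD, n = 3, limma adjusted p = 0.0899). *Meiob*, a single-strand DNA-binding protein of recombination, was at 16.3 ± 2.38 and 27.1 ± 8.58 FPKM (adjusted p = 0.28 by limma). Without control replicate 3 the unadjusted counts were 4 lower and 1 higher, and without control replicate 1 they were 6 and 1.

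*Rec8*, a meiotic cohesin and a known target of STRA8 and MEIOSIN, was looked at after its values were seen. It was at 32.9, 16.2, 35.6 and 16.7 FPKM in control replicates 1 to 4 and at 13.7, 17.7, 17.3 and 16.7 FPKM in *Sync-Spdya cKO* replicates 1 to 4. Control replicates 1 and 3 stood apart from the other 6 libraries, and the groups overlapped. Its limma adjusted p was 0.495, and 0.486 without control replicate 1, when the controls averaged 22.8 ± 11.1 FPKM (SD, n = 3).

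In the retinoic acid pathway, 14 of 19 genes passed the filter, none was called by limma or voom, and at an unadjusted limma p below 0.05 there were 1 lower and 4 higher, with a list median of 0.21. *Dhrs3*, a retinaldehyde reductase that lowers retinoic acid synthesis, was at 1.56, 2.02, 1.97 and 2.48 FPKM in the controls and at 4.04, 4.15, 3.89 and 3.62 FPKM in the *Sync-Spdya cKO* testes. The groups did not overlap, which held for 3.64% of all genes in that direction, and the log2 fold change was 0.95 with a standard error of 0.15 (limma adjusted p = 0.127). *Rdh10*, a retinol dehydrogenase of retinoic acid synthesis, was at 4.32 ± 0.792 and 3.05 ± 0.424 FPKM (adjusted p = 0.324 by limma), and *Aldh1a3*, which makes retinoic acid, at 1.13 ± 0.248 and 1.80 ± 0.28 FPKM (adjusted p = 0.29 by limma). *Stra6*, a retinol uptake receptor named after its values were seen, was at 6.59 FPKM in control replicate 3 and at 1.19 to 3.62 FPKM in the other 7 libraries.

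The regulators of meiotic entry held 15 tested genes of 17, none called by limma or voom, with 0 lower and 2 higher at an unadjusted limma p below 0.05 and a median log2 fold change of 0.00. The 3 with the smallest p were *Dmrtb1*, a DM-domain transcription factor of spermatogonia, at 36.7 ± 7.23 and 51.9 ± 6.91 FPKM (adjusted p = 0.287 by limma), *Sohlh2*, a spermatogonial helix-loop-helix factor, at 14.0 ± 2.39 and 18.8 ± 3.76 FPKM (adjusted p = 0.413 by limma), and *Max*, the partner of MGA in a complex that represses meiotic genes, at 14.0 ± 1.38 and 12.2 ± 0.84 FPKM (adjusted p = 0.55 by limma). *Dmrtb1* and *Sohlh2* also stand in the list of differentiating spermatogonia. Of the 15 genes of m6A and RNA decay, the setting in which YTHDC2 and MEIOC work, none was called by limma or voom and 0 had an unadjusted limma p below 0.05, with a median of -0.02. The smallest p there were those of *Rbm15*, *Zc3h13* and *Ythdf1*, with log2 fold changes of -0.18, -0.17 and 0.12 (limma adjusted p of 0.599, 0.623 and 0.675).

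Of the 17 genes of DNA replication none was called by limma or voom, 1 was lower and 0 higher at an unadjusted limma p below 0.05, and the list median was 0.00, or 0.13 without control replicate 1. That 1 gene was *Ccne2*, cyclin E2, which partners CDK2, at 23.3 ± 2.69 and 15.7 ± 2.42 FPKM (SD, n = 4 each) without overlap between the groups (limma adjusted p = 0.172). *Ccna2*, cyclin A2, was at 14.7 ± 3.97 and 17.3 ± 2.04 FPKM and *Ccne1*, cyclin E1, at 4.19 ± 1.18 and 4.79 ± 0.561 FPKM (limma adjusted p of 0.635 and 0.737). In control replicate 3, the testis with the most *Stra8*, 10 of the 17 genes had their lowest level of the 8 libraries, where 14.6% of all genes tested did. *Cdc6*, which loads the replicative helicase and was named after its values were seen, was at 1.98 FPKM there and at 4.08 to 10.1 FPKM in the other 7. In control replicate 1 the same list was high, with a median of 0.46 above the mean of the 8 libraries on the log2 scale, and 12 of the 17 genes had their highest level there, where 34.2% of all genes tested did.

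**Figure D5:**
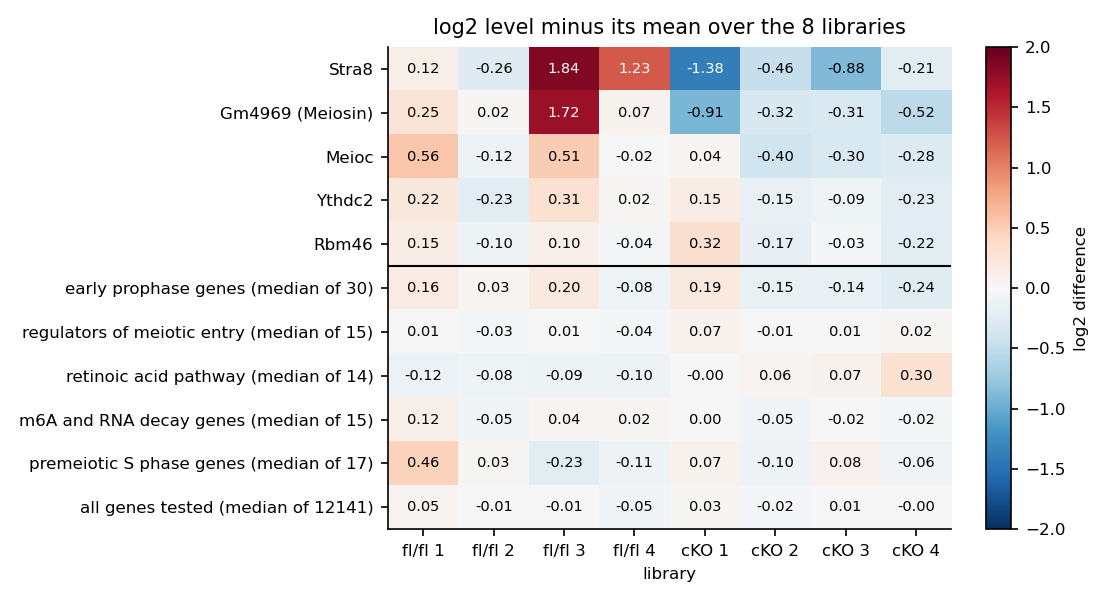
Log2 level minus its mean over the 8 libraries, for each member (upper rows) and as the median of each gene list (lower rows), by library (columns), with red above and blue below the mean. Control replicate 3 is at 1.84 for *Stra8*, 1.72 for *Gm4969* and -0.23 for the genes of DNA replication, and the list medians stay within 0.46 of 0.

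Markers of other cells moved with the groups and with single testes, and their part in the levels of the members was not tested. The 6 macrophage markers summed to 9.72 to 20.3 FPKM in the controls and 21.9 to 27.2 FPKM in the *Sync-Spdya cKO* testes, without overlap. Sums for Leydig cells (16.5 to 37.9 and 28.6 to 46.7 FPKM), endothelial cells (7.01 to 13.3 and 12.7 to 16.3 FPKM), peritubular cells (45.1 to 75.7 and 74.6 to 104 FPKM) and red blood cells (10.8 to 39.8 and 22.0 to 46.7 FPKM) overlapped. The 10 pachytene markers summed to 915 to 1468 FPKM in the controls and 713 to 1115 FPKM in the *Sync-Spdya cKO* testes, and the 10 Sertoli cell markers to 665 to 934 and 756 to 873 FPKM. The 8 spermatid markers summed to 4.81 to 12.3 and 5.98 to 7.99 FPKM, with *Catsper1* at 0 in each library. Spermatogonial markers, which bear on the cells that feed the preleptotene stage, summed to 90.7 to 139 and 92.1 to 117 FPKM for the 12 undifferentiated ones and to 183 to 272 and 256 to 282 FPKM for the 8 differentiating ones. Control replicate 3 had the highest pachytene sum and the lowest Sertoli sum of the 8 libraries. Control replicates 3 and 4, the testes with the most *Stra8*, had the lowest differentiating sums, at 204 and 183 FPKM. The other libraries were at 256 to 282 FPKM. Of that list, *Uchl1* and *Sohlh1* were lower in both of these testes than in any other library. *Kit*, *Dnmt3b*, *Sohlh2* and *Dmrtb1* were not at their lowest in either testis. The remaining genes were mixed, with *Rhox13* at 31.5 and 16.9 FPKM in control replicates 3 and 4, the latter its lowest. *Ccnd2* was at 4.45 FPKM, its lowest, and 9.31 FPKM there. The undifferentiated sums of control replicates 3 and 4, 91.4 and 90.7 FPKM, were also the lowest. But cKO replicate 1, with the least *Stra8*, was close at 92.1 FPKM, and *Sall4* of that list was highest in control replicate 4 (8.43 FPKM). A link of these sums to *Stra8* was not tested.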

How the data were processed

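Bulk RNA-seq of 8 whole testes was analysed. The authors had libraries sequenced as paired ends and deposited FPKM values made with a sequencing company's software, for 54532 genes. The aligner, counter and use of strand are not given in the sources used here, and the builds GRCm38 and mm10 come from the submitters' processing notes. Of the table's genes 99.8% were present in GENCODE vM21, and 98.3% of those had the same coordinates there. FPKM times gene length came out as whole fragments for 100% of values above 0 (tolerance 0.02). The per-library files held the same values as the table in all 8 libraries.

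Levels were tested as log2(FPKM + 0.1) with limma 3.58.1 in R 4.3.3 (lmFit, then eBayes with a trend), 4 libraries against 4, on the genes the study's filter keeps, those coding for protein whose mean FPKM exceeds 1 in each group. A fold change on this scale understates that of low genes. Calls needed an adjusted p (Benjamini-Hochberg) below 0.05 together with a log2 fold change beyond 1 in either direction. The procedure was run on simulated fragments in which all libraries shared a dispersion. The real libraries were less alike, with limma array weights from 0.161 (control replicate 1) to 4.45 (cKO replicate 3). That run therefore does not cover their setting. The study gives 4 mice per genotype. No replicates were the same library deposited again: the least different pair differed by 4.61 times sampling noise per gene.

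The members and lists were chosen with earlier results of these data known. The genes named were the 5 members, *Spdya*, the 3 genes of each list with the smallest p, markers from the cell type lists, and the genes most like *Stra8* (5) and *Gm4969* (3), and others are marked as named after their values were seen. Alternatives were other pseudocounts, filters and biotypes, voom on the recovered fragments, median centring, array weights, no trend in eBayes, a replicate block, and each library left out. Figures were drawn with matplotlib 3.10.9.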

Additional observations from a re-analysis of the deposited data

Results flagged for a closer look

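In a group of 4 libraries, 4 values stood so far from the other 3 that Dixon's test at the 95% level marked them, among 80 groups examined, where chance gives about 1 in 20, or 4. The marks are therefore a description and support nothing. The members were also chosen with their levels known, so a mark is no test for them. *Gm4969* reached 18.5 FPKM in control replicate 3 and lay between 5.63 and 6.61 FPKM in the other 3 controls. *Terb1* reached 17.8 FPKM in control replicate 1 and lay between 7.60 and 8.67 FPKM in the rest of the group. Mitochondrial genes held 0.464% of the fragments of control replicate 1, with 2.97% to 3.39% in the rest of the group. The summed level of the Leydig cell markers was 37.9 FPKM for control replicate 4 and 16.5 to 17.2 FPKM for the rest. *Stra8* was not marked in either group, since control replicate 4 lay between control replicate 3 and the others.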

How the results depend on the processing

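None of the 5 members was called in any of the 18 alternatives, their adjusted p running from 0.0794 upward for *Stra8* and from 0.0894 upward for *Gm4969*. Of the 90 alternative log2 fold changes of members, 89 stayed below 0, the exception being *Rbm46* without cKO replicate 4 (0.01). With 1 library left out they ranged from -1.80 to -1.09 for *Stra8*, -1.20 to -0.63 for *Gm4969*, -0.58 to -0.36 for *Meioc*, -0.26 to -0.08 for *Ythdc2* and -0.17 to 0.01 for *Rbm46*. The 2 calls over all genes became 0 without a filter and with the replicate block, 1 with median centring, 4 with all biotypes and 57 with array weights, and 0 to 3 with 1 library left out (0 for control replicate 2, control replicate 3, cKO replicate 1, cKO replicate 3 and cKO replicate 4). Each list had 0 calls in each alternative. With array weights 2 early prophase genes, 1 gene of the retinoic acid pathway and 1 of DNA replication had an adjusted p below 0.05 without passing the fold threshold. By an exact permutation test of Pearson's r, 3 of the 10 member pairs had an adjusted p below 0.05, a count that supports nothing since the members were chosen on these values. It was 0 by Spearman's rho, and 0 to 6 with 1 library left out (0 without control replicate 3 or cKO replicate 2). The SD of *Gm4969* fell to 0.23 without control replicate 3 and that of *Rbm46* to 0.11 without cKO replicate 1. The cause of these changes was not tested beyond the libraries named.

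Groups share replicate numbers, but deviations from the group means correlated between libraries of the same number at 0.0757 to 0.406, with 5 of 8 libraries correlating best with their own number, and the mice were treated as unpaired because 1 of the 4 pairs was below 0.1 and the labels do not tie a number to a litter. A replicate block raised the genes at an unadjusted p below 0.05 from 1322 to 1777. That number ran from 687 to 1889 with 1 library left out (687 without cKO replicate 4, 799 without cKO replicate 3 and 865 without control replicate 3). The block also lowered the standard error of the *Stra8* log2 fold change from 0.44 to 0.35, so the choice between paired and unpaired mice matters here and the labels do not settle it. Among the members *Stra8* had the lowest counts, 71 to 559 fragments, and also the largest SD between testes, 0.78 on the log2 scale.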
